A study of Mus musculus with 12 samples.

Results

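The ventral forebrain and striatal genes described here are 9 transcripts chosen as markers of tissue lying next to the cerebral cortex. Each was taken by gene name from the 55357 genes counted in each library. They are the transcription factors Ebf1, Isl1, Six3 and Nkx2-1, the dopamine receptors Drd1 and Drd2, the enkephalin precursor Penk, and the phosphatase regulators and enzymes Ppp1r1b and Ptpn5. All 9 were found under their names, and all 9 passed the filter on low counts in every comparison. RNA had been sequenced from embryonic mouse cortex, dissected with the hippocampal formation away from the ventral forebrain at E17.5 and cut into a caudal and a rostral part. Knockout embryos (Nestin-EgfrF/F, numbered 5, 2 and 7 in the titles) had both copies of Egfr (2 floxed alleles), which encodes the receptor of epidermal growth factor, open to deletion by a Nestin-Cre transgene that is active in progenitors of the nervous system. Control embryos (EgfrF/+, numbered 1, 3 and 9) had 1 floxed allele and 1 unaltered allele. The 12 libraries formed 4 groups of 3, which are knockout caudal, control caudal, knockout rostral and control rostral. Cre stands in the knockout titles, and no label used here gives the Cre status of the controls, so an effect of Egfr loss and an effect of the Cre transgene cannot be told apart. Sex and pooling of embryos are not given in the labels.

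The striatum forms below the cortex from the lateral ganglionic eminence, and most of its neurons are GABAergic projection neurons that receive dopamine. Neurons of the direct pathway carry the D1 receptor, and neurons of the indirect pathway carry the D2 receptor and make enkephalin. Cortical projection neurons arise instead from the dorsal progenitors, so transcripts of striatal factors in a cortical dissection also report how much adjoining tissue it holds. In RNA from whole tissue, fewer cells of a type and less RNA per cell cannot be told apart.

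The libraries held 25223733 to 30383672 counts each, and levels are given as CPM, a gene's count scaled to a library total of 1e+06. Egfr was at 3.60 to 7.33 CPM in the 6 knockout libraries, against 19.2 to 41.6 CPM in the 6 control libraries. Markers of cortical projection neurons (8 genes, among them Fezf2 and Neurod2) summed to 1416 to 2594 CPM in knockout and to 1744 to 2461 CPM in control libraries. Other transcripts did not follow the titles. The sex-linked transcripts were alike in both libraries of 1 of 6 titled embryos, and 2 control libraries, rostral 1 and 3, held both Xist and Y-linked transcripts. At a threshold of 10 CPM, Xist alone was present in all knockout caudal libraries, control caudal 3 and 9 and knockout rostral 7. Y-linked transcripts alone were present in knockout rostral 5 and 2, control rostral 9 and control caudal 1. Nr2f1, a nuclear receptor of caudal cortical identity, was higher in the library labelled caudal of 4 titled embryos and lower there in the other 2, knockout 2 (71.3 CPM caudal, 340 CPM rostral) and control 3 (58.6 CPM caudal, 348 CPM rostral). The labels were kept in every comparison, so an n of 3 counts libraries or sums of 2 libraries by title. The p-values measure how these vary, which may differ from how embryos vary.

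The 9 genes were transcribed at low to middling levels. Per kilobase of exon, the median over the 12 libraries was 7.00 CPM per kb for Ptpn5, 2.14 for Drd2, 2.08 for Ppp1r1b, 1.91 for Ebf1, 1.83 for Six3, 1.21 for Penk, 0.861 for Isl1, 0.422 for Drd1 and 0.309 for Nkx2-1. The ranges of neighbouring genes in this order overlapped in each of the 8 neighbouring pairs, so the order holds for the medians alone. Ptpn5 lay above 74.1% of the 25788 genes detected, whereas Nkx2-1 lay above 35.8% of them. On the CPM scale Ptpn5 varied least between libraries, with a coefficient of variation of 30.3%, and Isl1 varied most, with 120%.

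**Figure D1:**
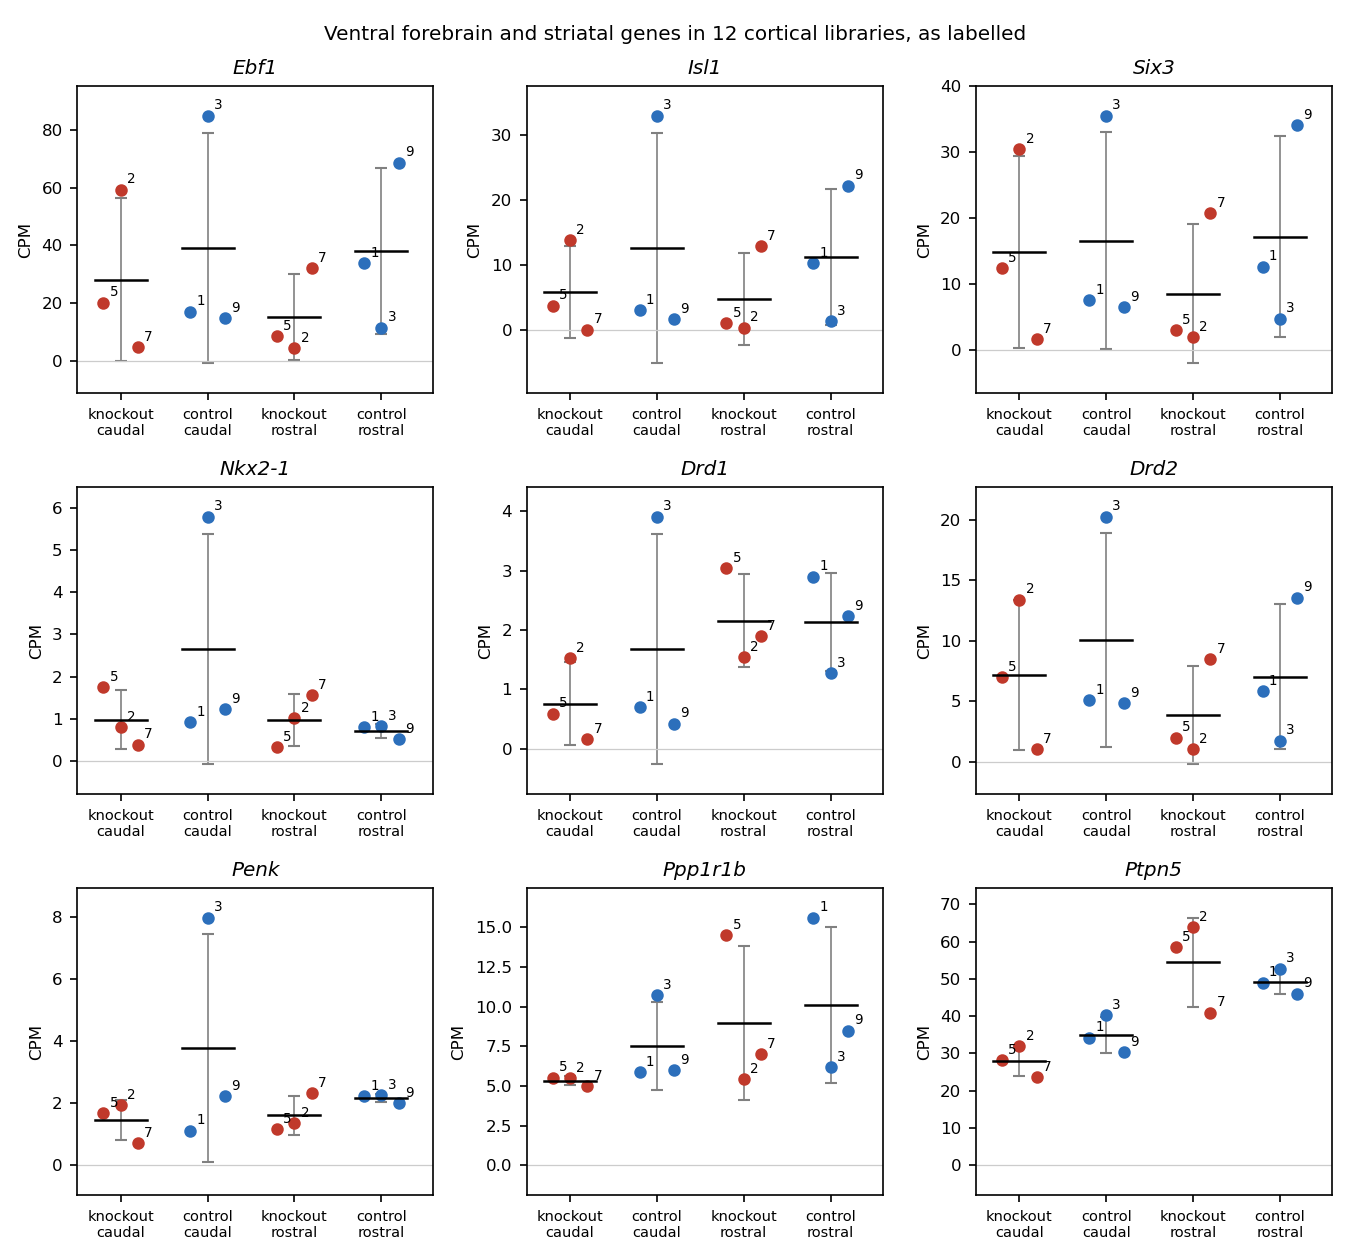
Level of each gene in CPM on the vertical axis by group on the horizontal axis, with knockout libraries in red and control libraries in blue. Each point is 1 library with the embryo number of its title, the black line is the group mean and the grey bar its SD (n = 3). Control caudal library 3 is the highest point in 7 of the 9 panels, and Ptpn5 is the panel in which all 6 caudal libraries lie below all 6 rostral ones.

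Ebf1, a transcription factor of differentiating striatal projection neurons (ENSMUSG00000057098.15, GRCm39 chromosome 11, 44508144 to 44898918, plus strand), varied widely within each group. It had 20.2, 59.4 and 4.65 CPM in knockout caudal libraries 5, 2 and 7, against 17.05, 85.0 and 14.9 CPM in control caudal libraries 1, 3 and 9. In rostral libraries it had 8.44, 4.49 and 32.1 CPM in knockout 5, 2 and 7, against 33.97, 11.5 and 68.7 CPM in control 1, 3 and 9. In each group 1 library stood well above the other two, namely knockout caudal 2, control caudal 3, knockout rostral 7 and control rostral 9, and the genotypes overlapped in both parts.

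Isl1, a LIM-homeodomain factor of direct pathway and cholinergic neurons (ENSMUSG00000042258.14, GRCm39 chromosome 13, 116434817 to 116446225, minus strand), followed the same libraries. It had 3.75, 13.8 and 0.0781 CPM in knockout caudal libraries 5, 2 and 7, against 3.07, 33.01 and 1.69 CPM in control caudal libraries 1, 3 and 9. The lowest of these values rests on 2 counts. The rostral libraries held 1.03, 0.385 and 12.9 CPM in knockout 5, 2 and 7, against 10.3, 1.35 and 22.2 CPM in control 1, 3 and 9. The same library of each group was again the highest, and the genotypes overlapped.

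Six3, a homeobox gene of the ventral forebrain that striatal neurons of the indirect pathway need (ENSMUSG00000038805.11, GRCm39 chromosome 17, 85921036 to 85936730, plus strand), repeated the order. It had 12.4, 30.4 and 1.66 CPM in knockout caudal libraries 5, 2 and 7, against 7.56, 35.5 and 6.52 CPM in control caudal libraries 1, 3 and 9. Rostral values were 2.97, 1.92 and 20.8 CPM in knockout 5, 2 and 7, against 12.6, 4.74 and 34.1 CPM in control 1, 3 and 9. The highest knockout library, caudal 2, lay just under the highest control libraries, caudal 3 and rostral 9.

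Drd2, the receptor of the indirect pathway (ENSMUSG00000032259.9, GRCm39 chromosome 9, 49251927 to 49319477, plus strand), varied with these factors. It had 6.98, 13.4 and 1.02 CPM in knockout caudal libraries 5, 2 and 7, against 5.09, 20.2 and 4.84 CPM in control caudal libraries 1, 3 and 9. In the rostral part it had 1.98, 1.05 and 8.50 CPM in knockout 5, 2 and 7, against 5.80, 1.74 and 13.6 CPM in control 1, 3 and 9. Ebf1, Isl1, Six3 and Drd2 thus had the same 3 highest libraries, knockout caudal 2, control caudal 3 and control rostral 9. They also shared the same 5 lowest, knockout caudal 7, knockout rostral 2 and 5, control caudal 9 and control rostral 3. Over the 12 libraries, Pearson's r of log2(CPM + 1) was 0.986 for Ebf1 with Six3, 0.982 for Ebf1 with Isl1 and 0.979 for Drd2 with Six3, as a description of libraries that share dissections and label problems.

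Because these 4 genes varied together, their promoter windows are shown, each 250 bases before to 50 bases after the annotated start, from RefSeq on GRCm38.p6 and written 5′ to 3′ on the strand of the gene. The windows lie at chr11:44619978-44620277 (Ebf1, plus strand, one of its starts), chr13:116309639-116309938 (Isl1, minus strand), chr17:85620584-85620883 (Six3, plus strand) and chr9:49340153-49340452 (Drd2, plus strand). Capitals mark matches to 6 motifs searched on both strands.
Ebf1: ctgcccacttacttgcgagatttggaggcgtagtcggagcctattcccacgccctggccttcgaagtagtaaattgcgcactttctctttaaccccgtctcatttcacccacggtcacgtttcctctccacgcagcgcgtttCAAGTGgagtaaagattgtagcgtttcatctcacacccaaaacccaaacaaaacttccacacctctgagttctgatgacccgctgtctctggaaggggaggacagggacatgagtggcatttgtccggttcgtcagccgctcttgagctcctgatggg
Isl1: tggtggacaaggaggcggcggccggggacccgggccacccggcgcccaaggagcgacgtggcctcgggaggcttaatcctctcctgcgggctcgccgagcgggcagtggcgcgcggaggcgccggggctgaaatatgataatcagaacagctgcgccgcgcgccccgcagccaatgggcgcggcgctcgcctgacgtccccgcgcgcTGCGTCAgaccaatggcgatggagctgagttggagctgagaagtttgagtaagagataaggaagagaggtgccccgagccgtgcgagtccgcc
Six3: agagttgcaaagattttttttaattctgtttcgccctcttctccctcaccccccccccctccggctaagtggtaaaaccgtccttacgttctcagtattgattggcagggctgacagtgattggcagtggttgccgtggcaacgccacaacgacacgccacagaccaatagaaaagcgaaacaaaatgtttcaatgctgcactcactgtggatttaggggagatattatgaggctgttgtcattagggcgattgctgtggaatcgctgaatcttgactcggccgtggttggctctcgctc
Drd2: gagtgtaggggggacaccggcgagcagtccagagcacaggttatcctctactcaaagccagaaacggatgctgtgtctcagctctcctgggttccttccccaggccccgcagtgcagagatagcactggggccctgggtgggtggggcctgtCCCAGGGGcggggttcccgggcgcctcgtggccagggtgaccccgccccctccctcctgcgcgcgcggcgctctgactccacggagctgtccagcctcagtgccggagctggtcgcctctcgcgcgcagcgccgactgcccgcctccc
The capitals in Ebf1 are CAAGTG, the core bound by NKX2 factors, at -108 to -103 from the start, a motif held by 13.56% of all 32851 windows of this length. Those in Isl1 are TGCGTCA, a variant of the cAMP response element, at -43 to -37, held by 2.116% of windows. Those in Drd2 match CCCNNGGG, the paired half-sites of EBF factors, at -98 to -91, held by 13.67% of windows. The window of Six3 held none of these, and neither did the other window of Ebf1, at chr11:44617850-44618149, which is not shown. The other motifs searched were the homeodomain core TAATTA, held by 5.291% of windows, the TATA box (TATAAA), held by 13.62%, and the full cAMP response element TGACGTCA, held by 1.79%, and none of the 10 windows found for members held any of them. No motif was common to the 4 windows shown. Of the 9 genes, 7 had a window in the RefSeq table, with 10 windows in all.

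**Figure D2:**
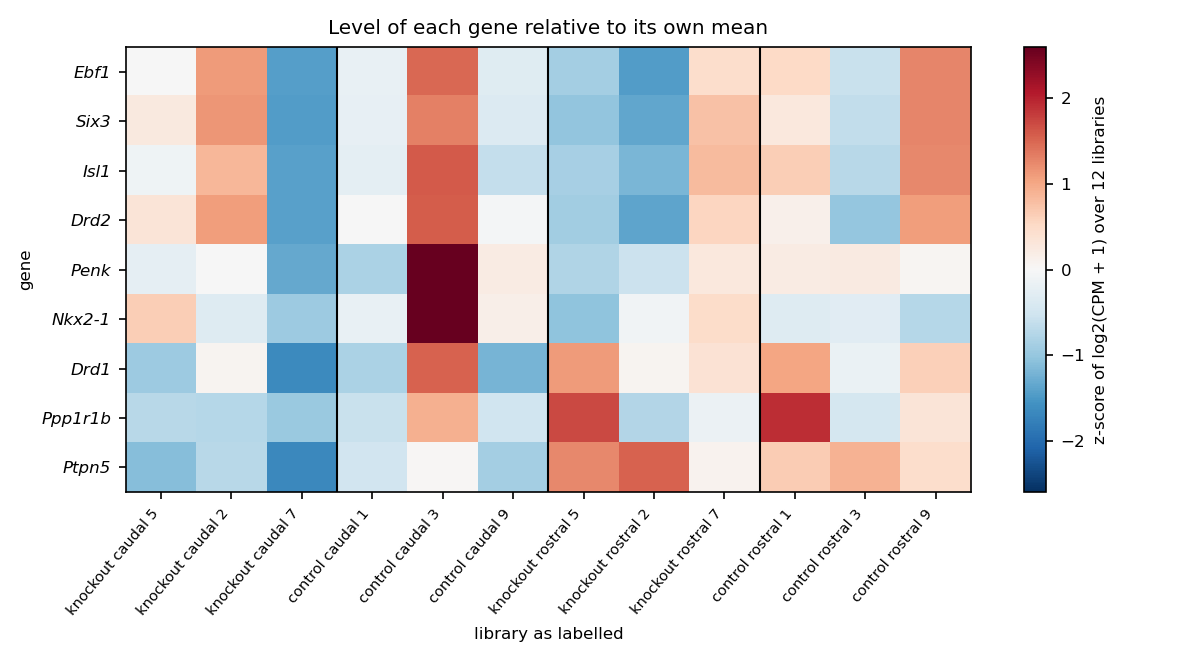
Z-score of log2(CPM + 1) over the 12 libraries (colour), with genes down the page and libraries across, grouped by black lines into knockout caudal, control caudal, knockout rostral and control rostral. Ebf1, Six3, Isl1 and Drd2 share 1 colour pattern that crosses the groups, Penk and Nkx2-1 peak in control caudal 3, and Ptpn5 is blue or near white in caudal and red or near white in rostral libraries.

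Nkx2-1, the factor that patterns the medial ganglionic eminence (ENSMUSG00000001496.16, GRCm39 chromosome 12, 56578743 to 56583693, minus strand), was near 1 CPM except in 1 library. It had 1.74, 0.802 and 0.391 CPM in knockout caudal libraries 5, 2 and 7, against 0.926, 5.79 and 1.23 CPM in control caudal libraries 1, 3 and 9. Labelled rostral, the libraries held 0.330, 1.01 and 1.57 CPM in knockout 5, 2 and 7, against 0.802, 0.833 and 0.522 CPM in control 1, 3 and 9. Control caudal 3 stood apart from the other 11 libraries, and the groups overlapped. Lhx8, a further factor of medial eminence neurons named after its values were seen, was at 5.35 CPM in that library and at 0.928 CPM or less in the others.

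Penk, the enkephalin precursor of indirect pathway neurons (ENSMUSG00000045573.10, GRCm39 chromosome 4, 4133531 to 4138819, minus strand), showed the same single high library. It had 1.68, 1.95 and 0.723 CPM in knockout caudal libraries 5, 2 and 7, against 1.12, 7.97 and 2.23 CPM in control caudal libraries 1, 3 and 9. Its rostral levels were 1.15, 1.36 and 2.32 CPM in knockout 5, 2 and 7, against 2.23, 2.26 and 2.01 CPM in control 1, 3 and 9. Apart from control caudal 3, the libraries of both genotypes lay between 0.723 and 2.32 CPM and overlapped.

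Drd1, the receptor of the direct pathway (ENSMUSG00000021478.7, GRCm39 chromosome 13, 54205202 to 54209724, minus strand), was low throughout, with 4 to 106 counts in a library. It had 0.592, 1.53 and 0.156 CPM in knockout caudal libraries 5, 2 and 7, against 0.694, 3.91 and 0.423 CPM in control caudal libraries 1, 3 and 9. Rostral libraries had 3.04, 1.54 and 1.89 CPM in knockout 5, 2 and 7, against 2.90, 1.27 and 2.24 CPM in control 1, 3 and 9. The 4 lowest libraries were all caudal, and they came from both genotypes.

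Ppp1r1b encodes DARPP-32, which inhibits protein phosphatase 1 once protein kinase A has phosphorylated it (ENSMUSG00000061718.13, GRCm39 chromosome 11, 98239230 to 98248622, plus strand). It had 5.53, 5.50 and 5.00 CPM in knockout caudal libraries 5, 2 and 7, against 5.86, 10.8 and 6.02 CPM in control caudal libraries 1, 3 and 9. Among rostral libraries it had 14.5, 5.45 and 7.00 CPM in knockout 5, 2 and 7, against 15.6, 6.18 and 8.50 CPM in control 1, 3 and 9. Knockout caudal libraries lay under all 3 control caudal ones by a small margin, and 1 library of each genotype, knockout rostral 5 and control rostral 1, was highest.

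Ptpn5, the phosphatase STEP, which dephosphorylates ERK and subunits of the NMDA receptor (ENSMUSG00000030854.18, GRCm39 chromosome 7, 46727543 to 46783432, minus strand), was the least variable member. It had 28.3, 31.9 and 23.7 CPM in knockout caudal libraries 5, 2 and 7, against 34.2, 40.2 and 30.4 CPM in control caudal libraries 1, 3 and 9. On the rostral side it had 58.5, 63.8 and 40.9 CPM in knockout 5, 2 and 7, against 49.0, 52.7 and 46.0 CPM in control 1, 3 and 9. All 6 caudal libraries lay below all 6 rostral ones. Its r with the mean z-score of the other 8 genes was 0.132 over the 12 libraries, the lowest of the 9, against 0.892 for Isl1, the highest. With single members its r was 0.696 for Drd1 and 0.520 for Ppp1r1b, and between -0.203 and 0.125 for the other 6. The level of Ptpn5 thus did not vary with Ebf1, Isl1, Six3 or Drd2, and was not shown to report adjoining tissue. For Ppp1r1b, r was 0.314 with Ebf1, 0.365 with Isl1, 0.207 with Six3 and 0.208 with Drd2, against 0.802 with Drd1. With the mean z-score of the other 8 genes Ppp1r1b had 0.460, and it was not shown to report adjoining tissue either.

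To ask what Egfr deletion did to these transcripts in the caudal cortex, the 3 knockout libraries labelled caudal were compared with the 3 control libraries. None of the 9 genes was called at an adjusted p under 0.05 by edgeR's quasi-likelihood test, where 0.0472% of 16964 genes were, or by DESeq2, where 0.454% were. None had an unadjusted p under 0.05, as 5.13% of all genes did. All 9 estimates were negative, with a median log2 fold change of -0.50, while 50.4% of all genes tested were negative and their median was -0.0012. The 9 signs are not separate observations, since Ebf1, Isl1, Six3 and Drd2 varied together over the libraries. The groups did not overlap for 1 gene, Ppp1r1b, and 6.14% of all genes did not overlap with knockout lower. Ppp1r1b averaged 5.37 ± 0.244 CPM in knockout and 7.54 ± 2.88 CPM in control libraries (SD, n = 3 each, TMM-scaled), with a log2 fold change of -0.49 (SE 0.26, edgeR adjusted p = 0.999992). Ptpn5 had -0.31 (SE 0.14, edgeR adjusted p = 0.999992), and Penk and Nkx2-1 had -1.38 (SE 0.75) and -1.42 (SE 0.83). These values leaned on single libraries. Without control embryo 3, the estimate was 0.83 for Ebf1, 1.32 for Isl1, 1.09 for Six3, 0.54 for Drd2 and 0.46 for Drd1, all positive, and -0.20 for Penk, -0.11 for Nkx2-1, -0.13 for Ppp1r1b and -0.19 for Ptpn5. Without knockout embryo 7 it was positive for Ebf1 (0.027), Drd2 (0.015) and Six3 (0.37), and -0.53 for Isl1. Without knockout embryo 2 it was -1.64 for Ebf1, -2.69 for Isl1, -1.23 for Six3, -1.32 for Drd2 and -2.12 for Drd1.

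In rostral libraries none of the 9 genes was called either, and 0% of 17131 genes were called by edgeR, with 180 (1.05%) at an unadjusted p under 0.05, none of them a member, and 4 (0.0233%) called by DESeq2. Egfr, the deleted gene, was not called by edgeR here either (5.23 ± 1.81 CPM in knockout and 25.2 ± 6.41 CPM in control libraries, SD, n = 3 each, log2 fold change -2.27, adjusted p = 0.999992), so a call was hard to reach and its lack says little about the 9 genes. In caudal libraries and in the sums Egfr was called (edgeR adjusted p = 0.0025 and 0.00556). The estimates were negative for 6 genes and positive for 3, with a median of -0.37 against 0.00089 for all genes. Ebf1 averaged 15.4 ± 15.6 CPM in knockout and 38.0 ± 29.6 CPM in control libraries (SD, n = 3 each), a log2 fold change of -1.31 (SE 0.87, edgeR adjusted p = 0.999992). Isl1 and Six3 had -1.20 (SE 1.35) and -0.97 (SE 1.04), and Nkx2-1 had 0.48 (SE 0.55). The SD within a group was about as large as the mean or larger for Ebf1, Isl1 and Six3 in knockout libraries. Without control embryo 9 the estimates of Drd2 and Six3 were 0.10 and 0.053, and those of Ebf1 and Isl1 were -0.53 and -0.21. Without knockout embryo 7 they were -2.56 for Ebf1, -4.00 for Isl1, -2.81 for Six3, -2.21 for Drd2, -0.74 for Penk and -0.062 for Nkx2-1.

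Summing both libraries of a titled embryo evened out much of this spread and does not depend on which of the 2 is caudal. Isl1 averaged 5.41 ± 2.54 CPM in knockout sums and 12.1 ± 5.48 CPM in control sums (SD, n = 3 each, TMM-scaled, as for the next genes), a log2 fold change of -1.17 (SE 0.51, edgeR unadjusted p = 0.0671). Ebf1 averaged 21.6 ± 8.15 CPM in knockout sums and 38.8 ± 12.4 CPM in control sums, a log2 fold change of -0.85 (SE 0.36, edgeR unadjusted p = 0.0592). For Drd2, knockout sums averaged 5.54 ± 1.21 CPM and control sums 8.62 ± 3.00 CPM, with -0.64 (SE 0.28, edgeR unadjusted p = 0.0605). For Penk, knockout sums averaged 1.56 ± 0.0986 CPM and control sums 2.98 ± 1.91 CPM, with -0.93 (SE 0.42, edgeR unadjusted p = 0.0637). These 4 genes had the smallest unadjusted p of the 9, and each had an edgeR adjusted p of 0.999915. Six3 had -0.53 (SE 0.37), Nkx2-1 -0.75 (SE 0.57), Drd1 -0.38 (SE 0.27) and Ppp1r1b -0.29 (SE 0.24). Ptpn5 was at 41.6 ± 7.44 CPM in knockout and 41.7 ± 3.70 CPM in control sums, a log2 fold change of -0.0026 (SE 0.13). None of the 9 was called, where 0.0317% of 18937 genes were, or by DESeq2, where 0.169% were, and none had an unadjusted p under 0.05, as 3.4% of all genes did. All 9 estimates were negative, and the sums of 1 gene, Penk, did not overlap, beside 5.25% of all genes with knockout lower. The median was -0.64, against -0.00067 and 50.3% negative estimates over all genes. A p above the threshold does not show that the genotypes were alike at this spread. Within the titles numbered 4692 (2 embryos a genotype) the mean of the sums was lower in knockout for 9 of 9 genes, and within those numbered 4858 (1 embryo a genotype) for 7 of 9. The share of all genes lower in knockout was not taken within these numbers. Both counts split the same sums, and several of the 9 genes varied together, so neither count is a replication. Without control embryo 3, Penk had -0.27, Nkx2-1 0.23, Drd1 -0.092 and Drd2 -0.40. Ppp1r1b had -0.59 without knockout embryo 5, and -0.13 without knockout embryo 2, and Six3 had -0.31 without knockout embryo 5. For Ptpn5, the sums gave 0.13 without knockout embryo 7 and 0.069 without control embryo 3. A titled sum joins libraries whose sex-linked transcripts differed in 5 of 6 embryos, so a sum cannot be taken as 1 embryo.

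**Figure D3:**
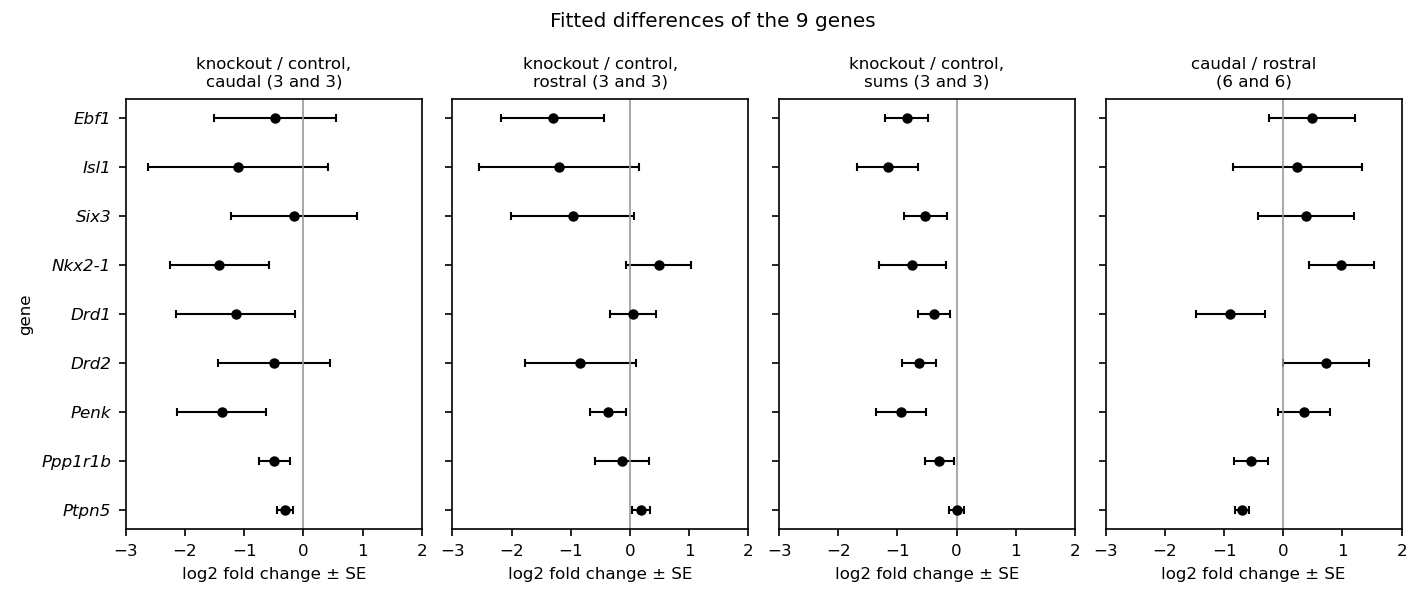
Log2 fold change of each gene (point) with its SE (bar) from edgeR in 4 comparisons, with genes down the page. Knockout over control is shown in caudal libraries, rostral libraries and sums per titled embryo (3 and 3 each), and caudal over rostral in the 12 libraries (6 and 6). The bars of the sums are the shortest of the 4 for 6 of the 9 genes, and Ptpn5 is the member whose caudal over rostral bar lies farthest from 0 in units of its length.

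Caudal libraries were then set against rostral ones over all 12 libraries. Ptpn5 averaged 31.8 ± 5.57 CPM in caudal and 51.3 ± 8.06 CPM in rostral libraries (SD, n = 6 each, TMM-scaled), a log2 fold change of -0.70 (SE 0.11). The groups did not overlap, as for 0.248% of all genes with caudal lower. Its unadjusted p was 6.50e-05 and its adjusted p 0.422 by edgeR, so it was not called, and 0% of 17734 genes were, with 1765 (9.95%) at an unadjusted p under 0.05. DESeq2 called 83 genes (0.468%), Ptpn5 among them (adjusted p = 0.00019), and edgeR called it without the filter on low counts (adjusted p = 0.0454), with 0.00551% of 36318 genes called. Over the 12 alternatives its estimate ran from -0.74 to -0.66. Most caudal libraries held Xist alone and most rostral ones held Y-linked transcripts, so part and sex cannot be fully told apart here. The share of sex in this difference was not tested. Ppp1r1b and Drd1 had negative estimates as well, -0.55 (SE 0.29) and -0.89 (SE 0.58), neither of them called. Nkx2-1 had 0.98 (SE 0.55), Drd2 0.72 (SE 0.73), Ebf1 0.49 (SE 0.73), Six3 0.38 (SE 0.81), Penk 0.35 (SE 0.44) and Isl1 0.24 (SE 1.10). Without control embryo 3, Nkx2-1 had 0.38 and Drd1 -1.83. With knockout embryo 2 and control embryo 3 left out, whose Nr2f1 ran against the labels, Ebf1 had -1.19, Isl1 -2.30, Six3 -1.24, Drd2 -0.67 and Penk -0.42, the opposite direction, while Ptpn5 had -0.73 (edgeR adjusted p = 0.0576).

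The genotype difference was not shown to depend on the part. None of the 9 genes was called in the interaction, for which 0% of 17734 genes were by edgeR, 486 (2.74%) had an unadjusted p under 0.05, none of them a member, and DESeq2 called 0. Ptpn5 had an interaction of -0.49 (SE 0.23, edgeR unadjusted p = 0.053), with knockout below control in caudal libraries (-0.31) and above it in rostral libraries (0.18). Nkx2-1 had -1.90 (SE 1.10).

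The striatal factors were also set beside Nr2f1. The 3 libraries in which Ebf1, Isl1 and Six3 were highest, knockout caudal 2, control caudal 3 and control rostral 9, had 71.3, 58.6 and 50.7 CPM of Nr2f1, the 3 lowest values of the 12 libraries. Knockout rostral 5 was low in both, with 97.1 CPM of Nr2f1 and 8.44 CPM of Ebf1. Knockout rostral 7, with 205 CPM of Nr2f1, had more Ebf1 (32.1 CPM) than knockout caudal 5, at 248 CPM of Nr2f1 and 20.2 CPM of Ebf1. No groups were formed from these levels and no test was made on them.

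**Figure D4:**
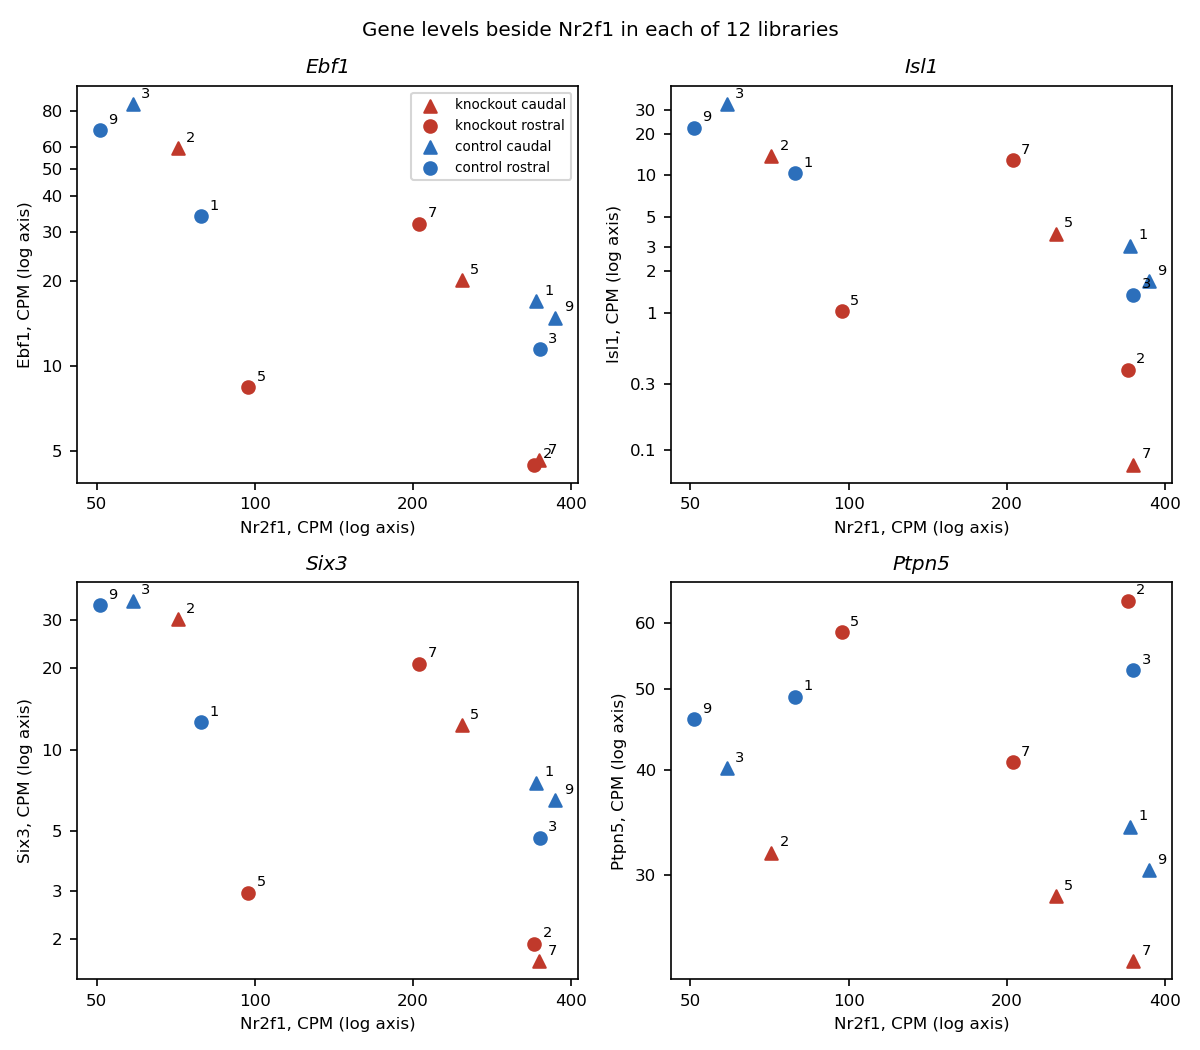
Level of Ebf1, Isl1, Six3 and Ptpn5 (vertical, CPM, log axis) against that of Nr2f1 (horizontal, CPM, log axis), with 1 point per library, knockout in red, control in blue, triangles for caudal and circles for rostral, and the embryo number beside it. The 3 highest points of Ebf1, Isl1 and Six3 lie at the left end of the Nr2f1 axis, knockout rostral 5 lies at the lower left, and the points of Ptpn5 part by label (triangles below circles) along the whole axis.

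Other transcripts of the ventral forebrain were taken as lists. Of 24 further genes of striatal projection neurons, all 24 were tested in the sums, 0 were called and 18 had negative estimates, with a median log2 fold change of -0.29. The smallest p values belonged to Ikzf1, a transcription factor of enkephalin neurons, and Adora2a, the adenosine receptor of indirect pathway neurons. Ikzf1 averaged 5.33 ± 0.711 CPM in knockout and 6.80 ± 0.317 CPM in control sums, and Adora2a 7.58 ± 0.112 CPM in knockout and 9.40 ± 1.45 CPM in control sums (SD, n = 3 each). Their log2 fold changes were -0.35 and -0.31 (SE 0.12 each, edgeR adjusted p = 0.999915). In caudal libraries 17 of 20 tested genes were negative (median -0.22) and in rostral libraries 16 of 21 (median -0.31), with 0 called in either. The highest library was control caudal 3 for 12 of the 24 genes, as it was for 7 of the 9 members. That library also had the most genes detected, 27178, and the share of all genes highest there was not taken.

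Of 14 progenitor factors of the ganglionic eminences and septum, 11 were tested in the sums, 10 had negative estimates (median -0.19) and 1 was called. This was Olig2, a basic helix-loop-helix factor of ventral and oligodendrocyte progenitors, at 7.83 ± 0.768 CPM in knockout and 19.7 ± 2.46 CPM in control sums (SD, n = 3 each), which fell by 1.33 on the log2 scale (SE 0.12, edgeR adjusted p = 0.00752). It was not called in caudal libraries (-1.48, SE 0.26, edgeR adjusted p = 0.353) or in rostral libraries (-1.18, SE 0.26, edgeR adjusted p = 0.999992). Of the 11 genes tested, 8 were negative in caudal libraries (median -0.23) and 10 in rostral libraries (median -0.21). Olig2 did not follow the libraries of Ebf1, since its 6 knockout libraries, at 5.12 to 11.4 CPM, all lay under its 6 control libraries, at 16.7 to 23.1 CPM. Control caudal 3 was the highest library for 9 of the 14, again without the share over all genes. Of 15 genes of cortical GABAergic interneurons, which migrate in from the eminences, 14 were negative in the sums and 0 called (median -0.22), with Nxph1 at -0.50 (SE 0.20). In caudal libraries 12 of 15 were negative (median -0.45) and 7 had groups that did not overlap with knockout lower, beside 6.14% of all genes, and in rostral libraries 8 of 15 were negative (median -0.035), with 0 called in either. Of 8 genes of cortical projection neurons, 6 were positive in the sums and 0 called (median 0.075), with Fezf2 at -0.24 (SE 0.075) and Neurod2 at 0.083 (SE 0.085). In caudal libraries 6 of 8 were positive (median 0.19), and in rostral libraries 7 of 8 were negative (median -0.096). These are medians over single genes and carry no test of the lists.

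Markers of other tissue also varied between libraries. Mural cell genes, 8 in all, were each highest in knockout rostral 7, where mitochondrial genes took 7.25% of counts, and summed to 74.3 to 222 CPM in knockout and 89.5 to 140 CPM in control libraries. All 8 had positive estimates in the sums (median 0.24), with Pdgfrb at 0.29 (SE 0.093) and Abcc9 at 0.31 (SE 0.17). In caudal libraries 7 of the 8 were negative (median -0.20), and in rostral libraries, which include knockout rostral 7, all 8 were positive (median 0.57). Choroid plexus genes (7) summed to 0.488 to 9.71 CPM in knockout and 2.29 to 57.4 CPM in control libraries, highest in control rostral 3, and the 4 tested were negative (median -1.15), with Clic6 at -1.75 (SE 0.59) and Aqp1 at -0.52 (SE 0.28). In caudal libraries 3 of 3 choroid plexus genes were negative (median -1.15), and in rostral libraries 1 of 2 (median -0.043). Among 5 cholinergic genes, Chat was listed at 0 in all 6 knockout libraries and in most control libraries. It was above 0 only in control rostral 1 (0.0382 CPM) and control caudal 3 (0.0369 CPM), and was not tested. Ngfr (-0.55, SE 0.35) and Slc5a7 (0.27, SE 0.39) were tested in the sums. Meningeal genes summed to 5.94 to 12.7 CPM in knockout and 5.50 to 32.2 CPM in control libraries, with Col1a1 at -0.88 (SE 0.61) and Col1a2 at -0.38 (SE 0.29) in the sums, and 4 of 4 were negative in caudal (median -0.76) and 4 of 4 positive in rostral libraries (median 0.21). Genes of hypothalamus and thalamus summed to 7.67 to 13.3 CPM in knockout and 9.51 to 13.2 CPM in control libraries, with Pomc at -0.30 (SE 0.19) and Agrp at 0.28 (SE 0.27). Genes of piriform cortex, claustrum and amygdala summed to 383 to 570 CPM in knockout and 386 to 585 CPM in control libraries, with Lmo3 at -0.25 (SE 0.21) and Lhx2 at 0.067 (SE 0.084) in the sums, and 4 of 6 were negative in caudal (median -0.39) and 5 of 6 positive in rostral libraries (median 0.16). None of these 6 lists held a called gene, and their part in the values of the 9 genes was not tested.

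**Figure D5:**
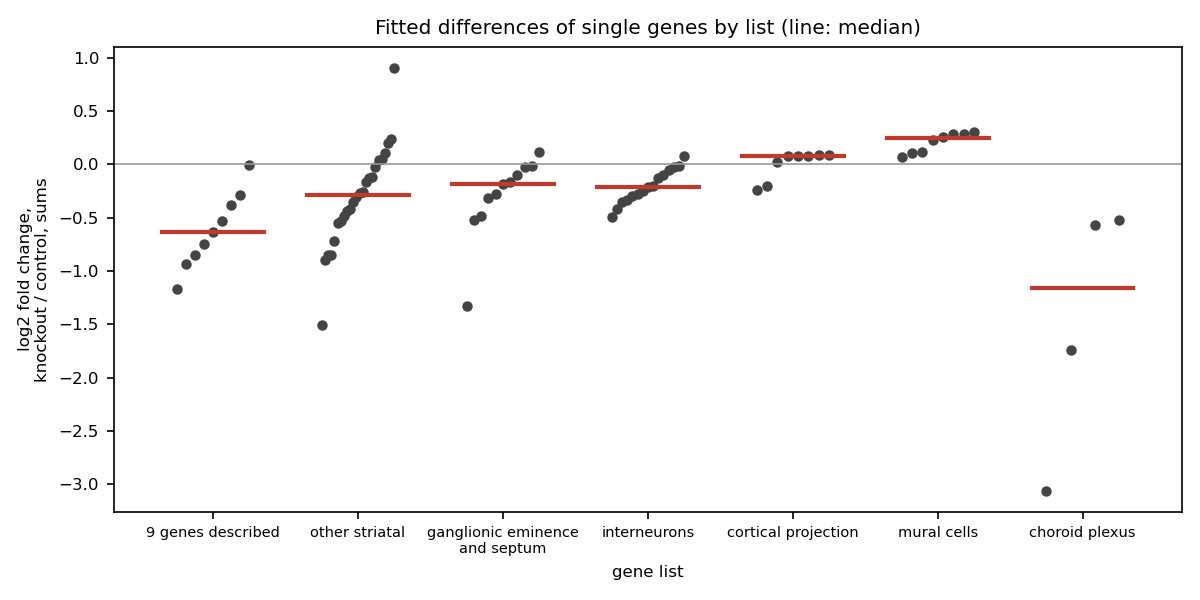
Log2 fold change of knockout over control sums (vertical) for the tested genes of 7 lists (horizontal), with 1 point per gene and a red line at the list's median. The 9 genes described have a median of -0.64, the other striatal genes of -0.29, the eminence genes of -0.19, the mural genes of 0.24 and the choroid plexus genes of -1.15.

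The genes most like the mean z-score of the 9 members over the 12 libraries were sought among 12943 genes at a mean of at least 1 CPM. The 10 with the highest Pearson r were Isoc1 (0.966), Dclk3 (0.958), Kcnh4 (0.954), Nova1 (0.948), Pcbp3 (0.946), Zic4 (0.944), Stat5b (0.940), Tpgs2 (0.939), Pigk (0.938) and Phlda1 (0.936). Zic4, a zinc finger factor of the septum, was at 0.820 to 15.9 CPM in knockout libraries, against 2.47 to 30.7 CPM in control libraries. Kcnh4, a potassium channel gene, was at 1.68 to 9.96 CPM in knockout libraries, against 3.88 to 13.3 CPM in control libraries. The kinase gene Dclk3 was at 0.254 to 4.20 CPM in knockout libraries, against 1.00 to 7.06 CPM in control libraries. Isoc1 varied over a narrow range, 32.7 to 44.5 CPM in knockout libraries, against 36.9 to 52.2 CPM in control libraries. The mean of the 9 members joins unlike patterns. Against the mean of the other 8, r was 0.132 for Ptpn5, 0.460 for Ppp1r1b and 0.892 for Isl1. Likeness to it is thus not likeness to Ebf1, Isl1, Six3 and Drd2 alone. With 12 libraries and this many genes, high values of r are a ranking and carry no p.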

How the data were processed

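The submitters' processing notes name STAR 2.7.8a, GRCm39 and featureCounts 2.0.3. Per the file headers, featureCounts used GENCODE vM28, took fragments of the reverse strand and split reads with several places or genes into fractions, so the authors' deposited values are estimated counts (expected counts) with no normalization. Reads that a gene shares with others are spread over them by this counting.

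After rounding to whole numbers, edgeR 4.0.16 in R 4.3.3 tested the counts (TMM scaling, filterByExpr, robust quasi-likelihood, Benjamini-Hochberg adjusted p under 0.05 over all genes tested). SEs are the log2 fold change divided by the root of the test's F. CPM per library uses the library's total, means beside a fold change use TMM, and the pseudocount on the log2 scale is 1 CPM. Genotypes were compared within caudal libraries, within rostral libraries and in sums per titled embryo, and caudal with rostral, and the interaction, in 1 fit of 12 libraries in 4 groups. Alternatives were DESeq2 1.42.0, its size factors, no filter, each titled embryo left out, libraries with doubtful labels left out, title numbers or embryos as blocks, all 12 libraries in 1 fit, and limma 3.58.1 (voom). The tests were also run on simulated counts with the labels taken as right, which cannot show how they perform where labels are doubtful.

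The members, lists and tests were chosen with earlier results of these data known. Named genes are the 9 members, Egfr, Nr2f1, up to 4 called genes of each of 10 lists (103 genes) or else the 2 with the smallest p in the sums, and the 10 genes most like the members. Some genes that this rule names are not reported here. Lhx8 was named after its values were seen. In the titles, caudal and rostral libraries share embryo numbers. The correlation of deviations from group means between such libraries, over 14238 autosomal genes, was -0.416, -0.428 and -0.542 for knockout 5, 2 and 7 and -0.0802, -0.528 and -0.505 for control 1, 3 and 9, so that 0 of 6 exceeded 0.1.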

Additional observations from a re-analysis of the deposited data

How the results depend on the processing

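None of the 9 genes passed the threshold in a genotype comparison or in the interaction under any alternative run, and Ptpn5 passed it in caudal against rostral with DESeq2 and with no filter (adjusted p = 0.00019 and 0.0454). The replicate block did not change a call of the 9 genes, with Ptpn5 at -0.69 (adjusted p = 0.418) and 0 genes called in caudal against rostral and in the interaction. Libraries that share an embryo number in their titles did not vary together, with correlations of deviations from -0.542 to -0.0802. Where rostral and caudal labels are doubtful, these correlations cannot show whether such libraries come from the same embryo.

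DESeq2 called 4 genes in rostral, 77 in caudal and 32 in summed comparisons and 83 in caudal against rostral. Without the filter edgeR called 2, 57, 110 and 2. With all 12 libraries in 1 fit it called 2 in rostral and 3 in caudal libraries. Without knockout embryo 2 and control embryo 3 it called 19 in the sums and 16 in caudal against rostral. Leaving out 1 titled embryo gave 2 to 8 in caudal libraries, 3 to 21 in the sums, 0 to 6 in caudal against rostral and 0 to 6 in the interaction.

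Several estimates changed sign, for which the cause was not tested. Over the fits without 1 titled embryo, knockout over control in rostral libraries ran from -0.27 to 0.32 for Drd1, -0.64 to 0.31 for Ppp1r1b, -0.062 to 0.90 for Nkx2-1, -2.21 to 0.10 for Drd2 and -2.81 to 0.053 for Six3. In caudal libraries it ran from -2.12 to 0.46 for Drd1, -1.32 to 0.54 for Drd2, -1.64 to 0.83 for Ebf1, -2.69 to 1.32 for Isl1 and -1.23 to 1.09 for Six3, and in the sums from -0.12 to 0.13 for Ptpn5 and -1.07 to 0.23 for Nkx2-1. Caudal over rostral ran from -0.033 to 1.66 for Drd2, -0.23 to 0.70 for Penk, -0.39 to 1.36 for Ebf1, -1.24 to 1.92 for Isl1 and -0.47 to 1.56 for Six3. The interaction ran from -2.36 to 0.68 for Drd1, -0.93 to 2.23 for Drd2, -0.96 to 0.26 for Ppp1r1b, -1.45 to 0.15 for Penk, -0.77 to 2.58 for Ebf1, -2.04 to 3.47 for Isl1 and -0.74 to 3.18 for Six3.

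Without knockout embryo 2 and control embryo 3, the estimate was -0.026 for Drd1 in rostral libraries, 0.016 for Six3 and 0.023 for Nkx2-1 in caudal libraries and 0.30 for Nkx2-1 in the sums. In caudal against rostral it was -0.67 for Drd2, -0.42 for Penk, -1.19 for Ebf1, -2.30 for Isl1 and -1.24 for Six3. Without control rostral libraries 1 and 3, it was -0.056 for Drd1 and 0.076 for Ppp1r1b in rostral libraries, and -0.26 for Isl1 and -0.13 for Six3 in caudal against rostral. Without control embryos 1 and 3, the sums gave 0.11 for Drd1, 0.11 for Ptpn5 and 0.20 for Nkx2-1.

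Low counts limit Drd1 (4 to 106 counts in a library), Nkx2-1 (9 to 157) and the lowest Isl1 libraries (from 2 counts). With 3 libraries a group and wide spread, small differences could not be detected.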
